A study of Homo sapiens with 16 samples.

Results

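DU145 cells given lactate were compared with DU145 controls across all expressed genes. DU145 is an established human prostate cancer line that was grown from a brain metastasis and does not depend on androgens. The comparison used 8 of the study's 16 RNA-seq libraries, 4 labelled control and 4 labelled lactate, and 14690 genes that passed a filter on low counts among 64792 gene identifiers. The labels call the replicates of this 1 line independent, without saying whether they were separate cultures, and give neither a dose nor a duration for lactate, nor a vehicle for the controls. The other 8 libraries held DU145 cells given I-BET762, an inhibitor of the BET proteins that bind acetylated histones, alone (4) or with lactate (4). They contributed to the estimate of each gene's spread and gave a second lactate comparison that shares no library with the first. For the 4 libraries with both agents the cell line field carries other line numbers, and their titles were followed.

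Lactate is the end product of glycolysis and crosses cell membranes together with a proton through monocarboxylate transporters. Cells can also take it up, oxidise it to pyruvate and burn it, and prostate cancer cells are known to use lactate released by neighbouring fibroblasts. Amino acid supply, one of the processes described here, is governed in part by ATF4, a transcription factor made when amino acids are short. ATF4 binds C/EBP-ATF response elements in genes for amino acid transporters and for the aminoacyl-tRNA synthetases that load amino acids onto tRNA.

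Total counts were 13300345 to 15867437 per control library and 10711859 to 17173584 per lactate library. Lactate replicate 1 had the lowest total and stood apart: the chi-square of its gene counts against the other lactate libraries was 72 to 166 per degree of freedom, against 12.3 to 45.2 among the other lactate libraries and 10.8 to 24 among the controls. BET inhibition is known to raise HEXIM1, so this gene served as a check of the labels. Expressed in CPM (counts scaled to each library's size), HEXIM1 was at 135 in the library labelled control replicate 2 and at 70 to 77.4 in the other controls, which goes against that label. It was at 89.6 in the library labelled I-BET762 replicate 2 and at 113 to 149 in the other I-BET762 libraries. Whether the labels of these libraries were exchanged was not tested, and the labels are used as given. The counts of changed genes, and the fold changes of genes given with a full test, are therefore reported with all 8 libraries and then without control replicate 2 and without lactate replicate 1. DU145 epithelial markers, 6 of 6 tested, summed to 2740 to 3420 CPM in the controls and 2870 to 4500 CPM with lactate. Of 8 luminal prostate markers 1 passed the filter, and FOLH1 had 0 counts. Of 6 neuroendocrine and 5 endothelial markers 1 each passed, at most 2.95 and 1.12 CPM. Of 9 fibroblast markers only COL1A1 passed the filter, and it carried a sum of 3.15 to 3.97 CPM in the controls and 4.07 to 7.93 CPM with lactate; DCN had 0 counts. Of 7 leukocyte markers CD14 and CD68 passed the filter, with a sum of 0.854 to 2.2 CPM in the controls and 2.6 to 3.15 CPM with lactate; CD3E had 0 counts. Their part in the results was not tested. In bulk RNA, fewer cells of a type and less RNA per cell cannot be told apart.

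As counted, lactate changed 3486 genes (edgeR adjusted p under 0.05; 23.7% of those tested), with 2003 higher (13.6%) and 1483 lower (10.1%). The size of the difference followed the GC content of the transcripts. Genes were sorted by GC content into 10 bins: in the lowest bin, with a median GC content of 36.8%, the median log2 fold change was -0.15, and in the highest, at 63.8%, it was 0.67. After each library's smooth trend on GC content had been removed, the medians of these bins were -0.03 and 0.02. Each library's log2 CPM of a gene was taken relative to that gene's mean over the 16 libraries. Across genes, the Spearman correlation of this deviation with GC content was -0.55 to -0.30 in the control libraries and -0.02 to 0.32 in the lactate libraries. Such values compare the libraries and do not relate a gene's level to its GC content. The same correlation with exon length was -0.40 and -0.42 in lactate replicates 1 and 4, against 0.24 and 0.10 in replicates 2 and 3. Genes within a library are not independent replicates, so no p is given for these values. What part GC content and exon length had in the differences left after the corrections was not tested.

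**Figure D1:**
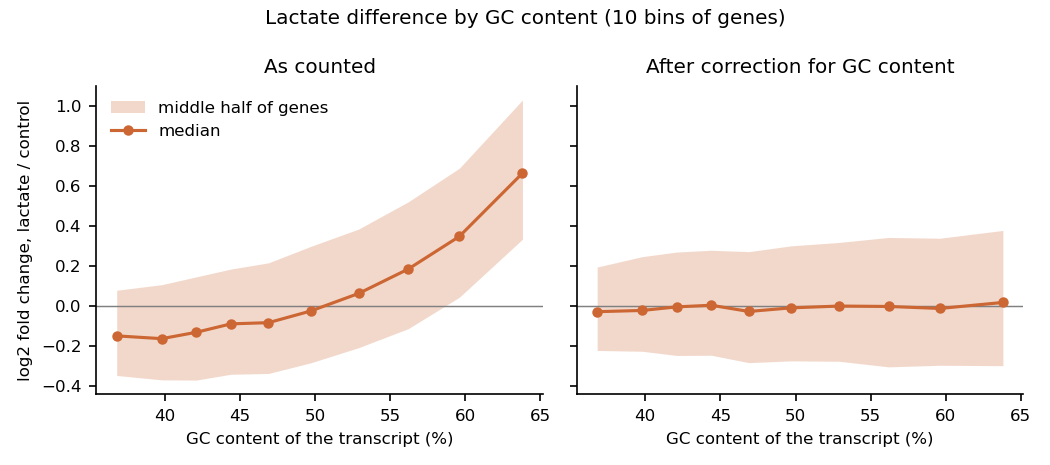
Median log2 fold change of lactate against control (y axis; line and points) and its middle quartile range (band) in 10 bins of genes sorted by transcript GC content (x axis, percent), as counted (left) and after correction (right). The left line runs from -0.15 at 36.8% GC to 0.67 at 63.8%, and the right line stays within 0.03 of 0.

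Correction for GC content left 2022 changed genes (13.8%), 1020 higher (6.94%) and 1002 lower (6.82%). Of the genes changed as counted, 1500 kept their direction and their side of the threshold, which was 43.1% of the rises and 42.9% of the falls. With exon length corrected as well there were 2319 (15.8%; 7.7% higher and 8.09% lower). Without the library labelled control replicate 2, 2729 genes changed (18.6%; 11.3% higher and 7.26% lower), and without lactate replicate 1, 3725 (25.4%; 14.5% higher and 10.8% lower). Without both there were 3406. These counts without a library are without GC correction. A gene is called retained below if it passed with the same sign in 5 fits: as counted, with GC correction, with GC and exon length correction, without control replicate 2, and without lactate replicate 1. The fits without a library had no GC correction. All fold changes given below without control replicate 2 or without lactate replicate 1 are likewise as counted. Retained genes numbered 1148 (7.81%), with 661 higher (4.5%) and 487 lower (3.32%).

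The retained rises were larger than the retained falls. Their median log2 fold change was 1.1 as counted and 0.89 after GC correction, and 257 of 661 reached 1 after correction. The falls had a median of -0.63 as counted and -0.56 after correction, and 55 of 487 reached -1. The rises had a median transcript GC content of 55.6% and a median exon length of 3759 bases, and the falls 45.3% and 5804 bases, against 48.1% and 4694 bases among all tested genes. The control and lactate libraries did not overlap in 611 of the 661 rises and in 431 of the 487 falls, against 20% of all tested genes (10.9% with lactate above and 9.12% with lactate below). The retained genes were chosen by tests on these same libraries, so their rarer overlap follows from that choice. Lactate replicate 1 was the highest of its group in 334 of the rises and the lowest in 345 of the falls; over all 14690 tested genes it was the highest in 5368 and the lowest in 6055. The retained set depends on the model and on the libraries left out. With the control and lactate libraries fitted alone, 92 genes were retained (81 higher and 11 lower), and all 92 were among the 1148. The same rule gave 340 genes without control replicate 3, 558 without lactate replicate 4, 642 without control replicate 4, 667 without control replicate 1 and 1801 without lactate replicate 2. The rule still included its fits without control replicate 2 and without lactate replicate 1. Each of these counts therefore rests in part on a fit that lacked 2 libraries of the same group. The same holds for such counts of list members below.

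Many genes of amino acid supply fell under lactate. Over 3 lists (amino acid transporters, aminoacyl-tRNA synthetases, and ATF4 targets with serine synthesis), 58 genes were tested, of which 18 were retained as lower and 2 as higher, against 3.32% and 4.5% of all tested genes. Transporters held 9 lower and 1 higher of 20, synthetases 7 lower and 1 higher of 19, and ATF4 targets with serine synthesis 2 lower and 0 higher of 19. The median log2 fold changes of these lists were -0.54, -0.40 and -0.24 as counted, and -0.59, -0.33 and -0.31 after GC correction, against 0.03 and -0.01 over all tested genes. Of the 20 retained members 19 are named below; beyond the first 3 of each list they were chosen after their values were seen.

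Letters of the C/EBP-ATF response element were looked for in the promoters of these genes, from 250 bases before to 50 bases after the start, in RefSeq sequences of GRCh38.p14. The letters TGATGNAA, on either strand, were in 6 of the 15 retained falls with a promoter in the table (40%). They were in 1.69% of the promoters of the 10754 tested genes that had one, in 3.67% of all 27305 promoters of this length, and in 4.28% and 0.617% of those of all retained falls and rises. The lists were made of genes of amino acid supply, ATF4 targets among them. Their members not retained as lower were not counted apart, so the share of 40% cannot tell the falls from the lists as a whole. For 5 of the 6 genes the window from 100 bases before to 30 bases after the start is printed here 5′ to 3′ on the gene's strand, because the match lies close to the start; capitals mark the letters, which read TTGCATCA where they match the other strand.
IARS1: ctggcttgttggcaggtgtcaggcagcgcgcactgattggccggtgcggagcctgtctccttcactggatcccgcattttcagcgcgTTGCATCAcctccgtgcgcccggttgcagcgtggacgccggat
MARS1: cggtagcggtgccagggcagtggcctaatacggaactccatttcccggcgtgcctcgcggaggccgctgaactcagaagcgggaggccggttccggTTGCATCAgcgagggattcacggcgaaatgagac
NARS1: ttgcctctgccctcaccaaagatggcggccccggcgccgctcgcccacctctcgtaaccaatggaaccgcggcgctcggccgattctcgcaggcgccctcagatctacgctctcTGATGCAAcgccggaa
TARS1: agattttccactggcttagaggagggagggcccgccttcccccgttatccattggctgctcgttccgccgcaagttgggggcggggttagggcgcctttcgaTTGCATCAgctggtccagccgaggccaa
SLC38A1: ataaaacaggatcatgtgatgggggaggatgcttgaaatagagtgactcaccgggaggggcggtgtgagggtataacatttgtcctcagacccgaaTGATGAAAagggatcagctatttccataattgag
These windows lie at chr9:92293668-92293797 (minus strand, IARS1), chr12:57487968-57488097 (plus, MARS1), chr18:57621807-57621936 (minus, NARS1), chr5:33440865-33440994 (plus, TARS1) and chr12:46266487-46266616 (minus, SLC38A1). Counted from the start, the first matching base is at -13 in IARS1, -4 in MARS1, 15 in NARS1, 3 in TARS1 and -4 in SLC38A1. The sixth gene, SLC1A3, has its match at -220. The letters were not found in this window of SLC7A5, SLC1A4, SLC1A5, SLC7A6, SLC36A1, GARS1, KARS1, PSAT1 or MTHFD2. SLC7A11, SLC7A2 and YARS1 were not in the table. Among all 182 tested genes whose promoters hold the letters, 24 were lower and 7 higher after GC correction, against 6.82% and 6.94% of all tested genes. A match is a description of the sequence and does not show that a factor binds there.

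Among the transporters, SLC7A5 encodes LAT1, which brings leucine and other large neutral amino acids into the cell (ENSG00000103257, chromosome 16, 87830023 to 87869488, minus strand; gene coordinates here are those of GENCODE release 29 on GRCh38). SLC7A5 had levels of 306, 269, 293 and 410 CPM in the controls and of 86.2, 248, 246 and 176 CPM with lactate (log2 fold change -0.76 ± 0.23 SE, adjusted p = 0.028 by edgeR; -1.21, adjusted p = 0.00255, after GC correction, -0.83 without control replicate 2 and -0.52 without lactate replicate 1). Every lactate library was below every control, and lactate replicate 1 was by far the lowest. SLC7A5 passed as counted without lactate replicate 1 (-0.52, adjusted p = 0.0172 by edgeR), but not without control replicate 3 (adjusted p = 0.0519), control replicate 4 (0.103) or lactate replicate 4 (0.0741). SLC1A4, the neutral amino acid exchanger ASCT1 (ENSG00000115902, chromosome 2, 64988477 to 65023865, plus strand), stood at 46.1, 37.6, 56.5 and 62 CPM in the controls and 19, 28.4, 23.4 and 21.1 CPM with lactate (log2 fold change -1.13 ± 0.16 SE, adjusted p = 0.000323 by edgeR; -1.07, adjusted p = 0.000641, after GC correction, -1.25 without control replicate 2 and -1.06 without lactate replicate 1). Its groups did not overlap, its lactate libraries lay close together, and it was the 1 gene of the 18 also retained with the control and lactate libraries alone. SLC1A5, the glutamine carrier ASCT2, stood at 296, 218, 349 and 431 CPM and 220, 215, 219 and 243 CPM (log2 fold change -0.53 ± 0.15 SE, adjusted p = 0.0216 by edgeR; -0.98 after GC correction, -0.68 without control replicate 2 and -0.53 without lactate replicate 1). Here control replicate 2, at 218 CPM, lay within the lactate range, and the other controls lay above it.

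SLC7A11 imports cystine in exchange for glutamate, and SLC38A1 is a sodium-coupled glutamine transporter. SLC7A11 stood at 124, 101, 152 and 129 CPM in the controls and 65, 89.8, 64.2 and 50.9 CPM with lactate (log2 fold change -0.91 ± 0.16 SE, adjusted p = 0.00133 by edgeR; -0.79 after GC correction, -1.0 without control replicate 2 and -0.90 without lactate replicate 1). SLC38A1 stood at 935, 682, 1090 and 878 CPM and 475, 755, 565 and 396 CPM (log2 fold change -0.71 ± 0.17 SE, adjusted p = 0.00909 by edgeR; -0.58 after GC correction, -0.82 without control replicate 2 and -0.65 without lactate replicate 1). The groups of SLC7A11 did not overlap, while those of SLC38A1 did, since control replicate 2 was below lactate replicate 2. SLC7A6, SLC36A1, SLC7A2 and SLC1A3 fell by 1.05, 0.73, 0.83 and 0.74 on the log2 scale. They carry cationic and neutral amino acids (SLC7A6), small amino acids out of lysosomes (SLC36A1), arginine and lysine (SLC7A2) and glutamate (SLC1A3). The exception among the transporters was SLC1A1, another glutamate transporter, at 7.25, 6.45, 6.31 and 7.31 CPM in the controls and 9.66, 13.1, 14.1 and 13 CPM with lactate (log2 fold change 0.87 ± 0.15 SE, adjusted p = 0.00119 by edgeR; 0.97 after GC correction, 0.85 without control replicate 2 and 0.96 without lactate replicate 1). All its lactate libraries were above all its controls.

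Of the synthetases, MARS1 loads methionine (ENSG00000166986, chromosome 12, 57475445 to 57517569, plus strand). It stood at 541, 426, 610 and 613 CPM in the controls and 312, 367, 369 and 368 CPM with lactate (log2 fold change -0.63 ± 0.11 SE, adjusted p = 0.00171 by edgeR; -0.73, adjusted p = 0.001, after GC correction, -0.73 without control replicate 2 and -0.58 without lactate replicate 1). The groups did not overlap. GARS1, which loads glycine, stood at 622, 491, 718 and 647 CPM and 342, 446, 395 and 375 CPM (log2 fold change -0.67 ± 0.12 SE, adjusted p = 0.00124 by edgeR; -0.64 after GC correction, -0.77 without control replicate 2 and -0.62 without lactate replicate 1). YARS1, which loads tyrosine, stood at 286, 219, 334 and 317 CPM and 157, 203, 211 and 219 CPM (log2 fold change -0.55 ± 0.13 SE, adjusted p = 0.0083 by edgeR; -0.73 after GC correction, -0.66 without control replicate 2 and -0.47 without lactate replicate 1). For both genes the lactate values were below the controls, though the closest pair of YARS1 values both round to 219 CPM. TARS1, for threonine, stood at 1050, 934, 1160 and 1080 CPM in the controls and 748, 726, 654 and 686 CPM with lactate (log2 fold change -0.59 ± 0.10 SE, adjusted p = 0.000894 by edgeR; -0.48 after GC correction, -0.64 without control replicate 2 and -0.63 without lactate replicate 1). IARS1, for isoleucine, stood at 587, 519, 669 and 599 CPM and 236, 470, 464 and 381 CPM (log2 fold change -0.61 ± 0.16 SE, adjusted p = 0.0137 by edgeR; -0.51 after GC correction, -0.67 without control replicate 2 and -0.45 without lactate replicate 1), with lactate replicate 1 again far below the other lactate libraries. NARS1, for asparagine, fell by 0.45 and KARS1, for lysine, by 0.41, both without overlap of the groups.

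PSAT1, the transaminase of serine synthesis, stood at 990, 755, 1190 and 1150 CPM in the controls and 719, 665, 572 and 589 CPM with lactate (log2 fold change -0.69 ± 0.13 SE, adjusted p = 0.00237 by edgeR; -0.56 after GC correction, -0.81 without control replicate 2 and -0.76 without lactate replicate 1). MTHFD2, which makes mitochondrial one-carbon units, stood at 550, 476, 622 and 623 CPM and 438, 386, 363 and 377 CPM (log2 fold change -0.54 ± 0.10 SE, adjusted p = 0.00211 by edgeR; -0.40 after GC correction, -0.61 without control replicate 2 and -0.61 without lactate replicate 1). In both genes every lactate library was below every control. The transcript of ATF4 itself did not pass, with a log2 fold change of -0.06 (adjusted p = 0.782 by edgeR); it stood at 609, 517, 606 and 642 CPM in the controls and 773, 475, 466 and 568 CPM with lactate. ATF4 is known to be regulated mainly at translation, so its transcript level does not give its protein level. The second lactate comparison, under I-BET762, is given as counted, without GC correction, and the part of GC content in it was not tested. All 18 falls had the same sign there and 13 passed the test in that direction, where 1.57% of all tested genes were lower. Without the library labelled I-BET762 replicate 2 these numbers were 18 and 10. Without control replicates 1, 3 and 4 and lactate replicate 4 in turn, the rule retained 11, 9, 10 and 11 members of these lists as lower, of which 3, 2, 3 and 3 were transporters and 6, 5, 5 and 6 synthetases. With the control and lactate libraries alone it retained 1.

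**Figure D2:**
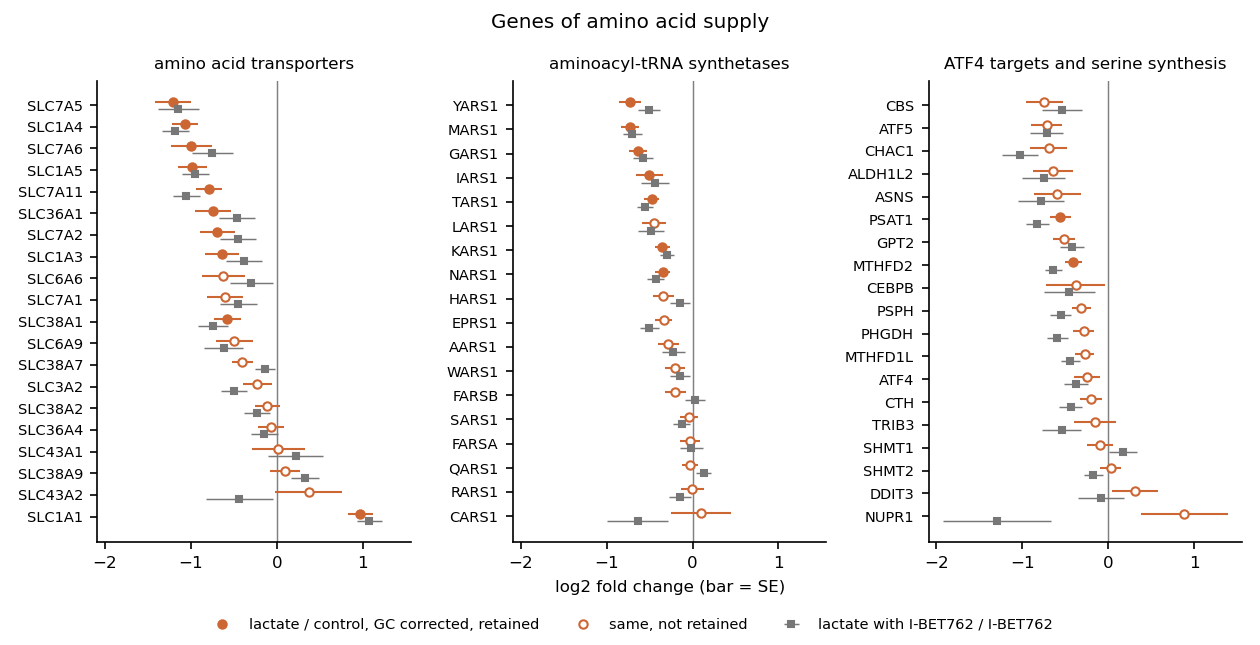
Log2 fold change (x axis; bars are SE) of the members reported from 3 lists of amino acid supply (y axis). Orange circles are lactate against control after GC correction, filled where retained by all 5 fits. Grey squares are lactate with I-BET762 against I-BET762 as counted, without GC correction. The distance from circle to square therefore also holds the effect of the correction. Most members lie left of 0, with SLC1A1 as a filled circle to the right.

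Outside hypoxia and glycolysis, the 12 largest retained rises without overlap of the groups included those of IGFBP3, WFDC2, CHCHD5, ISG15, ELMO3, NUDT18, FAUP4, CCN5, MTLN, HSD17B14 and DPM3. They were ordered by the GC-corrected log2 fold change at a mean of at least 5 CPM, which 388 rises and 379 falls met together with the other conditions. IGFBP3, which binds insulin-like growth factors outside the cell (ENSG00000146674, chromosome 7, 45912245 to 45921874, minus strand), stood at 4.2, 3.79, 2.36 and 2.48 CPM in the controls and 9.15, 15.7, 9.57 and 9.75 CPM with lactate (log2 fold change 1.78 ± 0.26 SE, adjusted p = 0.000493 by edgeR; 1.80, adjusted p = 0.000786, after GC correction, 1.87 without control replicate 2 and 1.86 without lactate replicate 1). All lactate libraries were above all controls, and replicate 2 was the highest. WFDC2, a secreted protein of epithelia also known as HE4 (ENSG00000101443, chromosome 20, 45469706 to 45481532, plus strand), stood at 19, 11.2, 15 and 24.3 CPM and 81.1, 34.9, 50.5 and 64.4 CPM (log2 fold change 1.73 ± 0.25 SE, adjusted p = 0.000489 by edgeR; 1.72 after GC correction, 1.57 without control replicate 2 and 1.51 without lactate replicate 1). ELMO3, an adaptor of the engulfment and cell motility family (ENSG00000102890, chromosome 16, 67199111 to 67204029, plus strand), stood at 7.44, 8.42, 5.12 and 8.79 CPM and 30.6, 27.4, 34.4 and 41.2 CPM (log2 fold change 2.17 ± 0.20 SE, adjusted p = 1.6e-05 by edgeR; 1.66 after GC correction, 2.23 without control replicate 2 and 2.20 without lactate replicate 1). Neither gene's groups overlapped, and ELMO3 kept 1.66 of its 2.17 after GC correction.

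CCN5, a matricellular protein (ENSG00000064205, chromosome 20, 44714844 to 44728509, plus strand), stood at 6.74, 4.1, 4.14 and 4.61 CPM in the controls and 16.5, 13.5, 15.9 and 17 CPM with lactate (log2 fold change 1.68 ± 0.23 SE, adjusted p = 0.000323 by edgeR; 1.58 after GC correction, 1.60 without control replicate 2 and 1.64 without lactate replicate 1). HSD17B14, a hydroxysteroid dehydrogenase (ENSG00000087076, chromosome 19, 48813017 to 48836678, minus strand), stood at 3.69, 3.26, 3.55 and 4.61 CPM and 17.6, 11.2, 14.2 and 17 CPM (log2 fold change 1.98 ± 0.19 SE, adjusted p = 1.6e-05 by edgeR; 1.53 after GC correction, 1.92 without control replicate 2 and 1.89 without lactate replicate 1). For both, the lactate libraries were well above the controls. Those of CCN5 were close to one another, while those of HSD17B14 ran from 11.2 to 17.6 CPM. NUDT18, a hydrolase of oxidised guanine nucleotides, stood at 3.88, 7.28, 3.42 and 5.11 CPM and 30.4, 18.4, 19 and 24.3 CPM (log2 fold change 2.23 ± 0.23 SE, adjusted p = 4.19e-05 by edgeR; 1.64 after GC correction, 2.47 without control replicate 2 and 2.06 without lactate replicate 1). IGFBP3, WFDC2, ELMO3, NUDT18, CCN5 and HSD17B14 were among the 7 of the 12 that were also retained with the control and lactate libraries alone.

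The mitochondrial proteins CHCHD5 and MTLN, the ubiquitin-like ISG15, the mannosyltransferase subunit DPM3 and the pseudogene FAUP4 were all highest in lactate replicate 1. CHCHD5 stood at 37.4, 12.9, 16.5 and 21.2 CPM with lactate against 6.17, 9.1, 3.55 and 7.52 CPM in the controls, and its log2 fold change went from 1.74 to 1.35 without that library. MTLN, a micropeptide of mitochondria, stood at 3.05, 1.9, 2.23 and 3.76 CPM in the controls and 15.3, 3.78, 6.34 and 7.44 CPM with lactate, and went from 1.56 to 1.08. ISG15 went from 2.22 to 1.87, DPM3 from 1.81 to 1.31, and FAUP4, whose near-identical copies make its counts uncertain, from 1.64 to 1.05. Lactate replicate 1 was the highest lactate library in 9 of the 12 rises. Without control replicate 2 the named rises had log2 fold changes of 1.42 (MTLN) to 2.47 (NUDT18). With GC content and exon length both corrected, the 12 rises had log2 fold changes of 1.15 (DPM3) to 1.82 (IGFBP3).

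**Figure D3:**
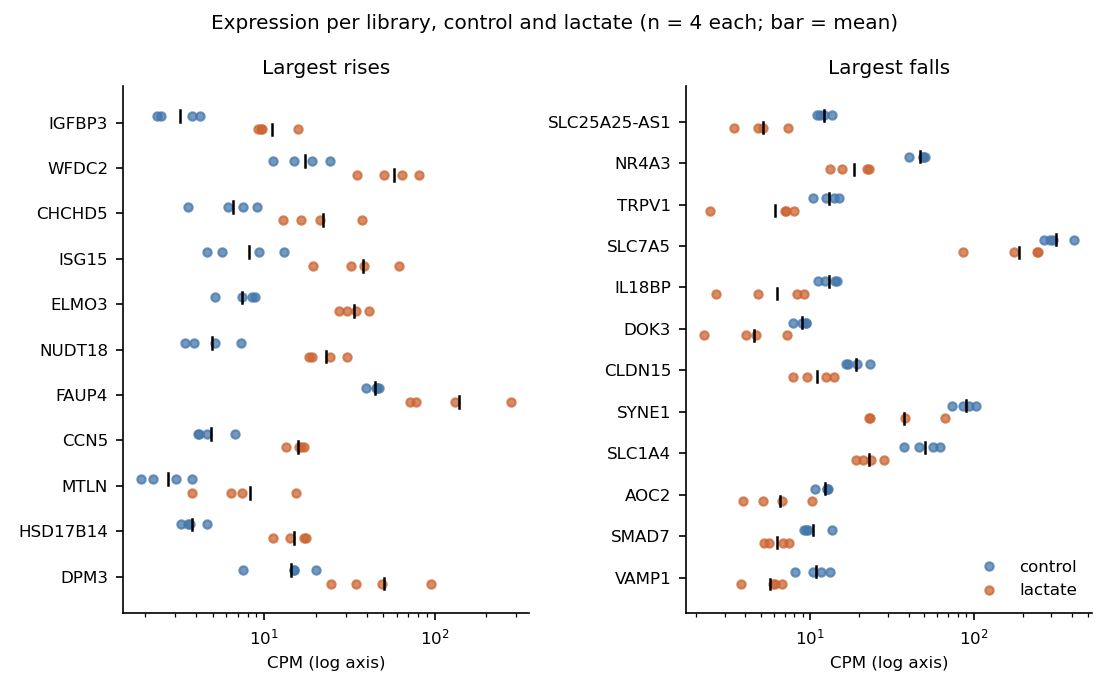
CPM per library on a log axis (x axis) for 11 of the 12 largest retained rises (left) and the 12 largest retained falls (right), with control libraries in blue, lactate libraries in orange and black ticks at the means. In each gene the orange and blue points do not overlap, which was a condition of the choice. Single orange points stand apart in genes such as FAUP4, DPM3 and TRPV1.

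The 12 largest falls chosen in the same way were those of SLC25A25-AS1, NR4A3, TRPV1, SLC7A5, IL18BP, DOK3, CLDN15, SYNE1, SLC1A4, AOC2, SMAD7 and VAMP1. NR4A3, an orphan nuclear receptor that is induced quickly by stimuli (ENSG00000119508, chromosome 9, 99821855 to 99866891, plus strand), stood at 48.9, 40.4, 50.6 and 48.9 CPM in the controls and 13.3, 23, 22.4 and 15.6 CPM with lactate (log2 fold change -1.34 ± 0.18 SE, adjusted p = 0.000285 by edgeR; -1.28, adjusted p = 0.000354, after GC correction, -1.41 without control replicate 2 and -1.22 without lactate replicate 1). Its relative NR4A2 stood at 75.1, 51.7, 47.7 and 55 CPM and 46.4, 36.8, 18.8 and 17.3 CPM (log2 fold change -0.95 ± 0.26 SE, adjusted p = 0.0146 by edgeR; -0.91 after GC correction, -1.0 without control replicate 2 and -1.25 without lactate replicate 1). The groups of NR4A3 lay far apart, while the nearest values of NR4A2 were 46.4 CPM with lactate and 47.7 CPM in the controls. SLC25A25-AS1, an antisense RNA, stood at 11, 11.5, 12.2 and 13.6 CPM and 4.78, 7.29, 5.1 and 3.42 CPM (log2 fold change -1.22 ± 0.21 SE, adjusted p = 0.00133 by edgeR; -1.28 after GC correction, -1.25 without control replicate 2 and -1.20 without lactate replicate 1). Its counts are uncertain because the strand setting of the counting is not given in the sources used here.

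SYNE1, a giant protein that links the nuclear envelope to the cytoskeleton (ENSG00000131018, chromosome 6, 152121684 to 152637801, minus strand), stood at 93.5, 86.4, 104 and 74 CPM in the controls and 22.9, 66.9, 38 and 23.1 CPM with lactate (log2 fold change -1.24 ± 0.25 SE, adjusted p = 0.00341 by edgeR; -1.18 after GC correction, -1.26 without control replicate 2 and -1.07 without lactate replicate 1). All lactate values were below all controls, and lactate replicates 1 and 4 lay far below replicate 2. SMAD7, the inhibitory SMAD of TGF-beta signalling (ENSG00000101665, chromosome 18, 48919853 to 48952052, minus strand), stood at 13.5, 9.41, 9.13 and 9.65 CPM and 6.81, 7.42, 5.6 and 5.21 CPM (log2 fold change -0.74 ± 0.18 SE, adjusted p = 0.00945 by edgeR; -1.04, adjusted p = 0.00249, after GC correction, -0.79 without control replicate 2 and -0.79 without lactate replicate 1). VAMP1, a SNARE of transport vesicles, stood at 8.01, 13.3, 11.6 and 10.4 CPM and 3.76, 5.91, 6.74 and 6.1 CPM (log2 fold change -0.93 ± 0.19 SE, adjusted p = 0.00355 by edgeR; -1.01 after GC correction, -0.81 without control replicate 2 and -0.79 without lactate replicate 1). CLDN15, a claudin of tight junctions, fell by 0.79 as counted and by 1.19 after GC correction. The cation channel TRPV1 (-1.24 after GC correction), the IL-18 decoy receptor IL18BP (-1.20), the docking protein DOK3 (-1.20) and the amine oxidase AOC2 (-1.04) fell as well, and all 4 were lowest in lactate replicate 1. That library was lowest in 10 of the 12 falls. Without control replicate 2 the 12 falls ranged from -1.41 (NR4A3) to -0.79 (SMAD7) on the log2 scale, and without lactate replicate 1 from -1.22 (NR4A3) to -0.52 (SLC7A5). SLC25A25-AS1, NR4A3 and SLC1A4 were the 3 of the 12 retained with the control and lactate libraries alone; TRPV1, SLC7A5, IL18BP, DOK3, AOC2 and SMAD7 had adjusted p = 0.0558 to 0.122 (edgeR) as counted in that fit.

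Several genes of sterol synthesis rose. Of 25 genes of cholesterol synthesis and uptake 7 were retained as higher and 0 as lower, against 4.5% and 3.32% of all tested genes. After GC correction 1 member was lower, and 1 with exon length corrected as well. The list's median log2 fold change was 0.18 as counted and 0.31 after GC correction. MVD, which decarboxylates mevalonate diphosphate (ENSG00000167508, chromosome 16, 88651935 to 88663161, minus strand), stood at 72.3, 91, 38.4 and 68.2 CPM in the controls and 270, 184, 201 and 219 CPM with lactate (log2 fold change 1.70 ± 0.24 SE, adjusted p = 0.000407 by edgeR; 1.13, adjusted p = 0.00171, after GC correction, 1.87 without control replicate 2 and 1.57 without lactate replicate 1). TM7SF2, a sterol reductase (ENSG00000149809, chromosome 11, 65111845 to 65116384, plus strand), stood at 65.9, 80.6, 46.1 and 59.6 CPM and 138, 164, 187 and 186 CPM (log2 fold change 1.42 ± 0.16 SE, adjusted p = 8.82e-05 by edgeR; 0.79, adjusted p = 0.00167, after GC correction, 1.56 without control replicate 2 and 1.5 without lactate replicate 1). Neither gene's groups overlapped, and both rises shrank with the correction and passed with it. MSMO1, a sterol methyl oxidase with a low GC content, stood at 232, 234, 232 and 237 CPM and 326, 274, 255 and 293 CPM (log2 fold change 0.30 ± 0.09 SE, adjusted p = 0.0228 by edgeR; 0.43 after GC correction, 0.30 without control replicate 2 and 0.22 without lactate replicate 1), a small rise over controls with an SD of only 2.23 CPM. MVK, EBP, FDPS and ACAT2, further enzymes of the pathway, made up the 7. Without control replicates 1, 3 and 4 and lactate replicate 4 in turn, 3, 2, 3 and 3 members were retained; with the control and lactate libraries alone, 2.

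Fatty acid oxidation and PPAR targets held 6 retained rises and 0 falls of 26, against 4.5% and 3.32% of all tested genes. ETFB, a subunit of the flavoprotein that passes electrons from fatty acid oxidation to the respiratory chain, stood at 12, 12.5, 6.31 and 13 CPM in the controls and 49.7, 17.6, 20.6 and 30.5 CPM with lactate (log2 fold change 1.43 ± 0.28 SE, adjusted p = 0.00302 by edgeR; 1.45, adjusted p = 0.00503, after GC correction, 1.5 without control replicate 2 and 1.06 without lactate replicate 1). ACADS, the short-chain acyl-CoA dehydrogenase, stood at 4.32, 5.69, 2.63 and 4.75 CPM and 13.3, 11.8, 13.8 and 12.2 CPM (log2 fold change 1.56 ± 0.21 SE, adjusted p = 0.000323 by edgeR; 0.92, adjusted p = 0.00164, after GC correction, 1.71 without control replicate 2 and 1.54 without lactate replicate 1). After GC correction ANGPTL4, an inhibitor of lipoprotein lipase, was higher by 0.75 on the log2 scale. The lactate values of ACADS lay close together, while ETFB was highest in lactate replicate 1 and lowest among the controls in replicate 3. UCP2, CPT1C and ECI1 completed the 6; 3 members were retained without control replicate 3, and 1 with the control and lactate libraries alone. Fatty acid synthesis and triglyceride storage held 5 retained rises and 1 fall of 27, against the same 4.5% and 3.32%. Yet the list's median log2 fold change was negative (-0.05 as counted, -0.12 after GC correction). The rises were HILPDA, PLIN2 and PLIN3 of lipid droplets, ACSS2, which makes acetyl-CoA from acetate, and the glucose-responsive factor MLXIPL. ACSS2 stood at 205, 208, 179 and 173 CPM and 227, 331, 317 and 321 CPM (log2 fold change 0.65 ± 0.11 SE, adjusted p = 0.00139 by edgeR; 0.52 after GC correction, 0.69 without control replicate 2 and 0.75 without lactate replicate 1). The fall was that of GPAT3, an acyltransferase that starts triglyceride synthesis, at 64.5, 50.3, 66.7 and 65.5 CPM and 35.7, 38.7, 38.6 and 41.6 CPM (log2 fold change -0.68 ± 0.11 SE, adjusted p = 0.00113 by edgeR; -0.57 after GC correction, -0.76 without control replicate 2 and -0.65 without lactate replicate 1). GPAT3 did not overlap between the groups, and the SD of its lactate libraries was 2.42 CPM. The list held 2 retained rises without control replicate 1 and 3 without lactate replicate 4.

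Phospholipid synthesis moved the other way, with 4 retained falls and 0 rises of 19, against 3.32% and 4.5% of all tested genes. Its median log2 fold change was -0.03 as counted and -0.21 after GC correction. CHKA and ETNK1 are the kinases that commit choline and ethanolamine to phospholipids. CHKA (ENSG00000110721, chromosome 11, 68052859 to 68121444, minus strand) stood at 55.7, 58.6, 56.5 and 53.4 CPM in the controls and 30.3, 34, 28.1 and 27.5 CPM with lactate (log2 fold change -0.90 ± 0.14 SE, adjusted p = 0.000663 by edgeR; -0.93, adjusted p = 0.00127, after GC correction, -0.88 without control replicate 2 and -0.92 without lactate replicate 1). ETNK1 (ENSG00000139163, chromosome 12, 22625075 to 22690665, plus strand) stood at 118, 112, 129 and 125 CPM and 79.4, 74.7, 71.2 and 73.9 CPM (log2 fold change -0.70 ± 0.08 SE, adjusted p = 0.000164 by edgeR; -0.60, adjusted p = 0.000251, after GC correction, -0.73 without control replicate 2 and -0.74 without lactate replicate 1). Neither gene's groups overlapped, both had narrow spreads, and both were retained with the control and lactate libraries alone. PCYT1A, the enzyme that follows CHKA, stood at 105, 110, 108 and 104 CPM and 60.2, 91.9, 91.2 and 77 CPM (log2 fold change -0.42 ± 0.11 SE, adjusted p = 0.0166 by edgeR; -0.36 after GC correction, -0.40 without control replicate 2 and -0.31 without lactate replicate 1). PTDSS1, a phosphatidylserine synthase, fell by 0.43. As counted this list also held 4 rises, of which 0 were retained: PCYT2 went from 0.43 to -0.25 with GC correction and ETNK2 from 0.34 to -0.01. The retained falls numbered 2 without each of the 4 control libraries and without lactate replicates 1 and 4.

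Redox genes moved both ways. Of 26 genes of NRF2 and antioxidant defence 5 were retained as lower (SLC7A11, GSR, GCLC, NQO1 and TXNRD1) and 2 as higher (AKR1C3 and TXNIP). Over all tested genes these shares were 3.32% and 4.5%. GSR, the glutathione reductase, stood at 417, 416, 427 and 424 CPM in the controls and 343, 245, 268 and 290 CPM with lactate (log2 fold change -0.56 ± 0.10 SE, adjusted p = 0.00193 by edgeR; -0.52 after GC correction, -0.56 without control replicate 2 and -0.66 without lactate replicate 1). The controls had an SD of only 5.27 CPM, and all lactate libraries were below them. NQO1, a quinone reductase, fell by 0.64, GCLC, which starts glutathione synthesis, by 0.52, and the thioredoxin reductase TXNRD1 by 0.73. AKR1C3, a reductase of steroids and prostaglandins, stood at 6.48, 5.16, 7.36 and 8.01 CPM and 26.8, 11.1, 10.6 and 13.2 CPM (log2 fold change 1.18 ± 0.25 SE, adjusted p = 0.00413 by edgeR; 1.31 after GC correction, 1.07 without control replicate 2 and 0.77 without lactate replicate 1), highest in lactate replicate 1. TXNIP, which binds thioredoxin and is induced by the glucose sensor MondoA (ENSG00000265972, chromosome 1, 145992435 to 145996600, minus strand), stood at 1.53, 1.59, 1.64 and 1.63 CPM and 4.27, 2.89, 6.57 and 9.53 CPM (log2 fold change 1.86 ± 0.49 SE, adjusted p = 0.014 by edgeR; 1.98, adjusted p = 0.017, after GC correction, 1.86 without control replicate 2 and 1.96 without lactate replicate 1). Its controls were nearly equal and its lactate libraries differed by over 3-fold, all above the controls. ARRDC3, another arrestin domain gene of that family, rose by 0.45, with overlap. The falls of the list numbered 2 and 3 without control replicates 3 and 4, and the rises 0 without control replicates 1 and 3 and 1 without control replicate 4 and lactate replicate 4.

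Some genes of dividing cells fell. Of 30 mitosis genes 9 were retained as lower and 0 as higher, against 3.32% and 4.5% of all tested genes. Their median log2 fold change was -0.20 as counted and after GC correction. BUB1, a spindle checkpoint kinase (ENSG00000169679, chromosome 2, 110637698 to 110678114, minus strand), stood at 150, 165, 148 and 141 CPM in the controls and 86.2, 108, 107 and 90.8 CPM with lactate (log2 fold change -0.62 ± 0.10 SE, adjusted p = 0.00107 by edgeR; -0.50, adjusted p = 0.00602, after GC correction, -0.58 without control replicate 2 and -0.57 without lactate replicate 1). MKI67, the proliferation marker Ki-67, stood at 464, 489, 496 and 364 CPM and 217, 347, 349 and 199 CPM (log2 fold change -0.70 ± 0.18 SE, adjusted p = 0.0111 by edgeR; -0.67 after GC correction, -0.67 without control replicate 2 and -0.61 without lactate replicate 1). Neither overlapped, but the lactate libraries of MKI67 fell into a lower pair, replicates 1 and 4, and a higher pair, replicates 2 and 3. KIF11, a spindle motor, fell by 0.58. In the second lactate comparison 0 of the 30 passed, where 1.57% of all tested genes were lower; BUB1, KIF11 and MKI67 had log2 fold changes of -0.34, -0.31 and -0.40 there. The count of falls depended on the libraries left out: 1, 2, 4, 5 and 2 members were retained as lower without control replicates 1, 2, 3, 4 and lactate replicate 4, and 0 with the control and lactate libraries alone. Ribosome biogenesis held 4 falls and 0 rises of 31, against 3.32% and 4.5% of all tested genes: UTP20, NOP2, NOLC1 and NOP14. UTP20, a scaffold of small subunit assembly, fell by 0.93. NOP2, a methyltransferase of ribosomal RNA, stood at a control mean of only 1.38 CPM, so its fall of 1.19 is imprecise. Without control replicates 1 and 3 and lactate replicates 3 and 4 the falls numbered 2, 1, 2 and 2, and without lactate replicates 1 and 2 they numbered 7 and 8. Of 32 DNA replication genes MCM3, a subunit of the replicative helicase, was the 1 retained, with a fall of 0.60, against 3.32% of all tested genes.

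Inflammatory and early response genes gave small counts of retained rises. NF-kB targets and cytokines held 3 of 23, CCL20, CXCL1 and IL6, against 4.5% of all tested genes. IL6, the cytokine interleukin-6, stood at 11.6, 6.45, 14.7 and 12.6 CPM in the controls and 32.4, 17, 25.1 and 34 CPM with lactate (log2 fold change 1.25 ± 0.32 SE, adjusted p = 0.0117 by edgeR; 1.36, adjusted p = 0.011, after GC correction, 1.06 without control replicate 2 and 1.14 without lactate replicate 1). CXCL1, a neutrophil chemokine, stood at 17, 12.8, 14.7 and 17.3 CPM and 51.6, 21.9, 23.6 and 32.8 CPM (log2 fold change 1.06 ± 0.23 SE, adjusted p = 0.00485 by edgeR; 1.14 after GC correction, 0.98 without control replicate 2 and 0.74 without lactate replicate 1). In neither gene did the groups overlap. CCL20, a chemokine, rose by 1.40, and 0.98 without lactate replicate 1. The list held 0 retained rises without control replicate 3. In the second lactate comparison, where 3.34% of all tested genes were higher, IL6, CXCL1 and CCL20 had log2 fold changes of 0.96, 0.45 and 0.67, with edgeR adjusted p of 0.0994, 0.306 and 0.255. Interferon response held 2 rises of 20, ISG15 and IFI6, against 4.5% of all tested genes. The list held 1 rise without control replicates 1, 2 or 3 or lactate replicates 3 or 4, and 5 without lactate replicate 2. ISG15 (ENSG00000187608, chromosome 1, 1001138 to 1014540, plus strand) stood at 9.28, 4.63, 5.65 and 13 CPM and 62, 19.3, 32.2 and 38.4 CPM (log2 fold change 2.22 ± 0.35 SE, adjusted p = 0.000842 by edgeR; 1.68, adjusted p = 0.00409, after GC correction, 2.03 without control replicate 2 and 1.87 without lactate replicate 1). Under I-BET762 its log2 fold change was 0.19 (adjusted p = 0.816 by edgeR), and the difference between these values did not pass (adjusted p = 0.7 by edgeR). Of the AP-1 and immediate early genes JUN and JUNB rose by 0.74 and 1.29 (0.54 and 0.63 after GC correction), NR4A3 and NR4A2 fell, and JUND went from 1.29 to 0.27 with the correction (adjusted p = 0.539 by edgeR). This list had 0 retained rises without control replicate 3, and 1 without control replicates 1 or 4 or lactate replicates 1, 2 or 3. Its retained falls numbered 1 without control replicates 1, 3 or 4 or lactate replicate 4.

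Of the 37 lists described, epithelial differentiation lost the most rises with the GC correction. Of its 21 genes 9 were higher as counted and 2 after correction, against 13.6% and 6.94% of all tested genes. MUC1, a GC-rich mucin, went from 1.12 to -0.07. PRSS8, a membrane protease, remained, at 0.699, 0.152, 0.46 and 1.28 CPM in the controls and 5.19, 3.37, 5.55 and 5.14 CPM with lactate (log2 fold change 2.87 ± 0.44 SE, adjusted p = 0.000663 by edgeR; 2.35, adjusted p = 0.00355, after GC correction, 2.57 without control replicate 2 and 2.83 without lactate replicate 1). Its level is low, and the groups did not overlap. PKP3, a desmosome protein, kept 0.58 of 1.38, and KRT80, a keratin, fell by 0.66. Of 18 tight junction genes CLDN3 and CLDN4 were retained as higher, against 4.5% of all tested genes. That share also stands beside the 1 of 23 unfolded protein response and chaperone genes below. CLDN4 stood at 75, 42.7, 55.7 and 70.6 CPM and 186, 128, 99.9 and 113 CPM (log2 fold change 1.11 ± 0.24 SE, adjusted p = 0.00444 by edgeR; 0.89 after GC correction, 0.97 without control replicate 2 and 0.89 without lactate replicate 1), and CLDN3 kept 1.22 of 2.18 after correction. HSPB1, a small heat shock protein, was the 1 retained of 23 genes of the unfolded protein response and chaperones, at 50.1, 37.9, 23.4 and 54.3 CPM and 209, 83.9, 120 and 135 CPM (log2 fold change 1.72 ± 0.28 SE, adjusted p = 0.00087 by edgeR; 1.13 after GC correction, 1.69 without control replicate 2 and 1.44 without lactate replicate 1). LDHD, the mitochondrial dehydrogenase of D-lactate, was at 0.191, 0.303, 0.0657 and 0.0709 CPM in the controls and 0.712, 0.344, 1.3 and 2.08 CPM with lactate (log2 fold change 2.79 ± 0.62 SE, adjusted p = 0.00586 by edgeR; 2.23 after GC correction, 3.25 without control replicate 2 and 2.92 without lactate replicate 1). At these low levels the size of its rise is imprecise, although the groups did not overlap.

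In the signalling lists few genes were retained. Beside each list of this paragraph stand the shares of all tested genes, 4.5% retained as higher and 3.32% as lower. SPRY1, a feedback inhibitor of ERK signalling, stood at 2.61, 2.88, 2.69 and 1.84 CPM in the controls and 6.41, 8.8, 4.59 and 5.21 CPM with lactate (log2 fold change 1.31 ± 0.24 SE, adjusted p = 0.00192 by edgeR; 1.40 after GC correction, 1.38 without control replicate 2 and 1.29 without lactate replicate 1). SMAD3, a TGF-beta effector, fell by 0.55 and TEAD1, the DNA-binding partner of YAP, by 0.84, both with overlap of the groups. ZNRF3, a Wnt antagonist, fell by 0.52 without overlap. It missed the threshold without control replicates 3 or 4 or lactate replicate 4 (adjusted p = 0.0685, 0.0639 and 0.0702 by edgeR). Under I-BET762 its log2 fold change was -0.05 (adjusted p = 0.913 by edgeR). GRB10, an adaptor that dampens insulin-like growth factor receptors, fell by 0.60 and the RNA-binding protein IGF2BP3 by 0.90, each with overlap of the groups. Lysosome and autophagy genes moved both ways, 3 higher and 3 lower of 30, against 4.5% and 3.32% of all tested genes. SQSTM1, the autophagy receptor p62 (ENSG00000161011, chromosome 5, 179806398 to 179838078, plus strand), stood at 102, 88.6, 79.4 and 134 CPM and 54.9, 78.6, 64.7 and 73.3 CPM (log2 fold change -0.57 ± 0.14 SE, adjusted p = 0.0105 by edgeR; -0.83, adjusted p = 0.000916, after GC correction, -0.63 without control replicate 2 and -0.49 without lactate replicate 1), while GAA, acid glucosidase, rose by 1.29 (0.67 after correction). ATP6V0A1, a proton pump subunit, fell by 0.67. Without each library in turn, this list held 1 to 3 rises and 0 to 4 falls, with 0 falls without control replicate 4 and 1 rise without control replicates 2 or 3 or lactate replicate 4. Of 27 acetyltransferases, deacetylases and sirtuins KAT2A, the acetyltransferase GCN5, fell by 0.50 (0.88 after correction) and HDAC11 rose by 0.85 (0.42 after correction). KDM4A, a histone demethylase, fell by 0.51. Of 18 nuclear envelope genes SPAG4 and SYNE4 rose and SYNE1 fell, and of 18 clock and MondoA genes BHLHE40, ARRDC3 and TXNIP rose and NR1D2, a repressor of the clock, fell. The last list had no retained member without control replicate 3, and 1 rise without control replicate 4. Of the BCL2 family BNIP3 and BNIP3L, receptors for the removal of mitochondria, were the 2 retained of 19, both higher. Single retained members also stood in the lists of mesenchymal genes (LOXL4, 1.06), S100 proteins (S100A5, -1.13, at most 1.18 CPM in the control and lactate libraries), G1 cyclins (RBL1, -0.64), splicing (SRSF1, -0.61) and metal handling (SLC39A14, -0.55).

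**Figure D4:**
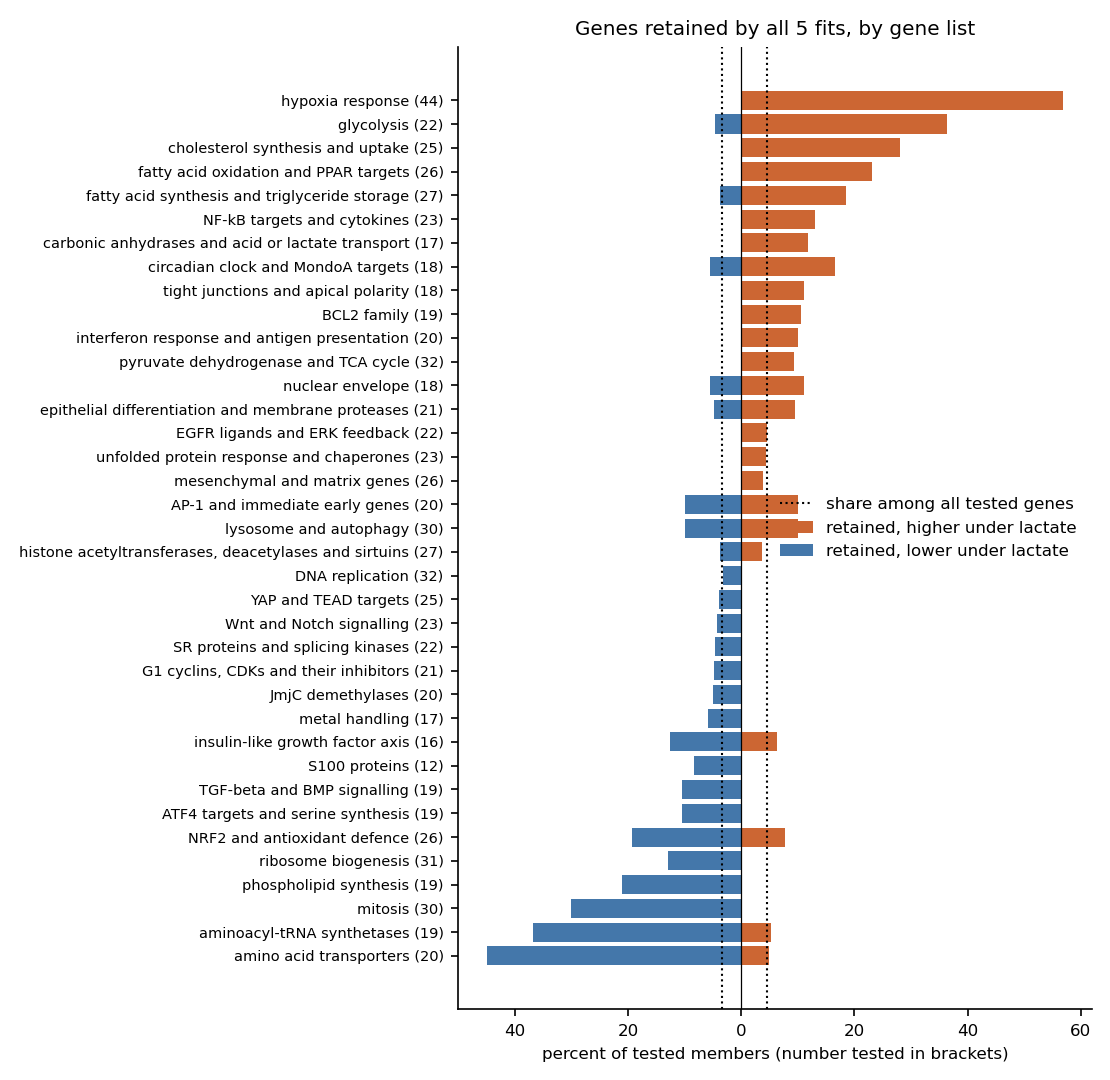
Percent of tested members (x axis) retained as higher (orange, right) or lower (blue, left) under lactate, for 37 gene lists (y axis, number tested in brackets). Dotted lines mark the shares among all tested genes, 4.5% higher and 3.32% lower; hypoxia response reaches farthest right and amino acid transporters and aminoacyl-tRNA synthetases farthest left.

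As points of reference, the hypoxia response held 25 retained rises and 0 falls of 44, against 4.5% and 3.32% of all tested genes. Without each library in turn it held 22 to 27 rises. SPAG4, BNIP3 and SLC16A3 had log2 fold changes of 2.13, 1.42 and 0.91 after GC correction. SLC16A3, the lactate exporter MCT4, stood at 102, 108, 80.7 and 133 CPM in the controls and 217, 258, 352 and 327 CPM with lactate. The core that hypoxia-inducible factors bind can read ACGTG or GCGTG. On either strand ACGTG was in 12 of the 18 promoters of retained hypoxia genes in the table (66.7%), against 26.5% of promoters of tested genes and 27.8% of those of retained rises outside the hypoxia and glycolysis lists. GCGTG was in 9 of the 18 (50%), against 51.0% of promoters of tested genes. Of 32 genes of pyruvate dehydrogenase and the TCA cycle PDK1, PDK3 and IDH2 were retained, all higher, against 4.5% of all tested genes. PDK3, a kinase that switches off pyruvate dehydrogenase, rose by 0.69, and IDH2, the mitochondrial isocitrate dehydrogenase, by 0.73. In glycolysis, PFKFB2 fell by 0.75 while PFKFB4, PGK1 and ENO2 rose; the products of PFKFB2 and PFKFB4 both set the level of fructose 2,6-bisphosphate.

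The retained genes were followed in the second lactate comparison, lactate with I-BET762 against I-BET762, in which 720 genes changed (4.9%), 490 higher (3.34%) and 230 lower (1.57%). With GC correction these were 785 (5.34%), 431 (2.93%) and 354 (2.41%). As counted there, without GC correction, 264 of the 661 rises (39.9%) passed in the same direction, and 134 of the 487 falls (27.5%). In the opposite direction 0 passed. The sign was the same for 650 rises and all 487 falls, against 71.6% of all tested genes. The median log2 fold change under the inhibitor was 0.62 for the rises and -0.39 for the falls. Without the library labelled I-BET762 replicate 2, whose HEXIM1 level went against its label, 205 rises and 79 falls passed, against 2.13% and 0.824% of all tested genes. Both comparisons were fitted in 1 model and share its estimate of the spread, but no library.

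Of the falls that were also retained with the control and lactate libraries alone, SLC1A4 (-1.18, adjusted p = 0.000529), NR4A3 (-1.21, adjusted p = 0.000761), CHKA (-0.86, adjusted p = 0.00178) and ETNK1 (-0.77, adjusted p = 7.19e-05) passed there, with log2 fold changes close to those without the inhibitor. Of the 12 largest rises 6 passed, and of the 12 largest falls 8. TXNIP rose by 2.85, from 0.761, 0.88, 2.2 and 1.99 CPM with I-BET762 to 3.85, 5.54, 17.8 and 15.7 CPM with both. A test of the difference between the lactate effects with and without the inhibitor called 0 genes (edgeR, smallest adjusted p = 0.7; DESeq2 was not run for it), also after GC correction, while 894 genes (6.09%) had an unadjusted p under 0.05. Among the 1148 retained genes 214 (18.6%) did; these genes had been chosen on 1 side of that difference.

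**Figure D5:**
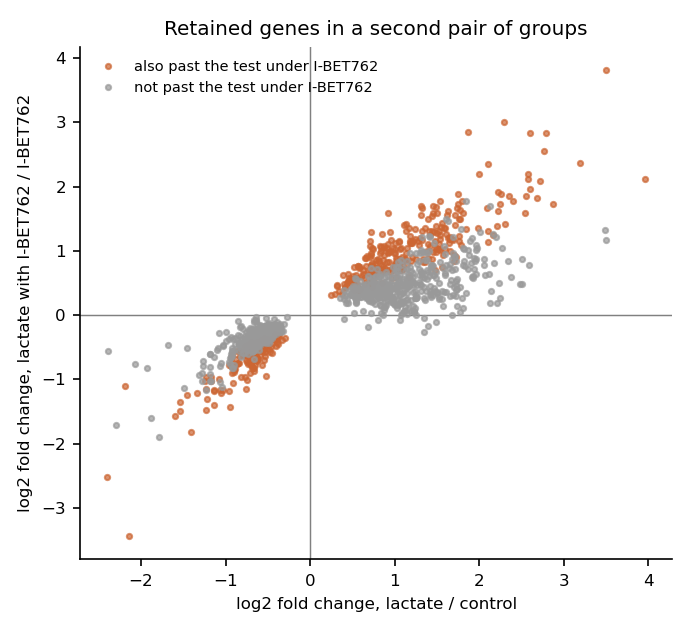
Log2 fold change of lactate with I-BET762 against I-BET762 (y axis) against that of lactate against control (x axis) for the 1148 retained genes, in orange where the gene also passed the test under I-BET762 and in grey where it did not. Both axes are as counted, without GC correction. The x values were used to choose the genes; 650 of 661 rises lie above 0 on the y axis and all 487 falls below it.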

How the data were processed

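PolyA RNA of 16 DU145 libraries, 4 per group, was sequenced on an Illumina NextSeq500 as single-end reads of 75 bases from 800 ng of total RNA with a directional kit, per the labels' protocols. The deposited table holds raw read counts per Ensembl gene, 1 column per library, that the authors made from these reads. The tools named in the submitters' processing notes are DESeq and STAR 2.6.1c, and the build is GRCh38.p12; how reads were assigned to genes, and with which strand setting, is not given in the sources used here. Columns were matched to samples by title, and 0 sample columns were left unused.

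Genes were kept with edgeR's filterByExpr (minimum count 10, minimum total 15), scaled by TMM and fitted with edgeR 4.0.16 (R 4.3.3) by the quasi-likelihood test in 1 model of 4 group means (16 libraries, 12 residual degrees of freedom). Tests were two-sided at a Benjamini-Hochberg adjusted p of 0.05 over 14690 genes. Trends of each library on transcript GC content, and on exon length, were taken out as offsets from natural splines (5 degrees of freedom) of log2 CPM (prior count 2), using GENCODE release 29; 92 genes had no GC content or length and were not corrected or counted as retained. The labels call the replicates independent but do not say whether they came from separate cultures, so p-values may measure only technical spread.

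Named genes were the 12 largest rises and 12 largest falls by the GC-corrected log2 fold change among retained genes with an official symbol, a mean of at least 5 CPM, no overlap of the groups and no place in the hypoxia or glycolysis lists. Up to 3 retained members per list with the smallest GC-corrected p, and SPAG4, BNIP3 and SLC16A3, were added; any other gene was chosen after its values were seen. Some genes that met these rules are not reported here. Of 986 entries in 43 lists 985 matched the table and 861 were tested. The comparison, the genes and the lists were chosen with earlier results of these data known. The fits were tested on simulated data. Alternatives were RLE scaling, other filters on low counts, the control and lactate libraries alone, DESeq2 1.42.0, the replicate number as a block, and leaving out libraries. Figures used matplotlib 3.10.9.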

Additional observations from a re-analysis of the deposited data

Results flagged for a closer look

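In 15 of 220 groups of 4 libraries, over the named genes and the library measures, 1 library lay farther from the other 3 than Dixon's 95% limit (0.829 of the range); chance alone gives about 1 in 20. Lactate replicate 1 was such a library in MARS1, at 312 CPM against 367 to 369, in ACSS2, at 227 CPM against 317 to 331, and in AKR1C3, at 26.8 CPM against 10.6 to 13.2. Lactate replicate 2 was one in IGFBP3, at 15.7 CPM against 9.15 to 9.75. Control replicate 3 was low in ETFB, at 6.31 CPM against 12 to 13, in GAA, at 21.4 CPM against 37 to 39.8, and in HILPDA, at 11 CPM against 12.3 to 12.5. Control replicate 4 was low in TEAD1, at 328 CPM against 435 to 437, and in PDK3, at 4.4 CPM against 8.28 to 8.95. The rank correlation with exon length of its deviations from the genes' means over the 16 libraries was 0.03, against 0.24 to 0.27 in the other controls. Control replicate 1 was high in SMAD7, at 13.5 CPM against 9.13 to 9.65, and in LOXL4, at 4.96 CPM against 2.81 to 3.15, and low in AOC2, at 10.7 CPM against 12.6 to 12.9. Control replicate 2 was low in NR4A3, at 40.4 CPM against 48.9 to 50.6, and in GPAT3, at 50.3 CPM against 64.5 to 66.7.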

How the results depend on the processing

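The count of 3486 changed genes went to 2022 with GC correction and 2319 with GC and exon length correction. With the control and lactate libraries alone it was 889, with 123 unchanged in direction after GC correction and 92 retained; the cause was not tested. Leaving out 1 library at a time gave 1849 to 4932 changed genes, 618 to 2973 after GC correction and 340 to 1801 retained. For the retained counts, the rule's fits without control replicate 2 and without lactate replicate 1 left out the named library as well. The lowest were without control replicate 3, then lactate replicate 4 (2097, 725 and 558); without control replicates 1 and 4 the GC-corrected count was 883 and 927, and the highest were without lactate replicate 2. DESeq2 called 4225 genes, and RLE scaling 3481. Without a filter 3137 genes changed, and 2759 at a mean of at least 5 CPM. The difference in lactate effect under I-BET762 stayed at 0 genes in all of its alternatives.

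Of 107 named genes none reversed. The adjusted p missed the threshold for 37 with the control and lactate libraries alone, 13 without control replicate 3, 10 without lactate replicate 4, 8 without control replicate 4, 6 without control replicate 1, and 0 with DESeq2 or RLE scaling. It was also 0 with GC correction, which retained genes had to pass, so that 0 follows from the choice of genes. ZNRF3, SMAD3, KRT80, S100A5, MSMO1 and ARRDC3 were among those that missed the threshold both with the control and lactate libraries alone and without control replicate 3.

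Same-numbered control and lactate libraries had correlations of 0.04, 0.18, 0.16 and 0.36 in their deviations from the group means, and control replicates 2, 3 and 4 correlated best with their own number but control replicate 1 with lactate replicate 2 (0.13), so the numbers were not taken to pair the samples. With the replicate block 4244 genes changed, 1880 after GC correction in the same direction, 1500 were retained, and 2499 changed with the replicate block and GC correction together; the difference under I-BET762 had 0.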
